A study of Mus musculus with 16 samples.

Results

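The 9 genes described here encode neurotrophic factors, which are secreted proteins that keep neurons alive and growing, and the receptors that bind them. They are Bdnf and Fgf2 (the ligands), Ntrk2, Ntrk3 and Ngfr (receptors of the neurotrophins), Gfra1, Gfra2 and Ret (receptors of the GDNF family) and Fgfr1 (a receptor of fibroblast growth factors). They were taken by symbol from the 3 deposited tables, and all 9 had a row in each of them, among the 19495 genes that the 3 tables share. RNA of whole retina from C57BL/6 mice, adults of about 6 weeks, was sequenced after depletion of ribosomal RNA. The groups were retinas given an AAV2 carrying HDAC5AA (4 libraries), an AAV2 carrying HDAC5DAD (4 libraries) or an AAV2 carrying GFP (3 libraries), and uninjured retinas (4 libraries), called Uninjured. HDAC5 belongs to the class IIa histone deacetylases, and what AA and DAD stand for is not stated in the labels. The 3 virus groups shared a crush of the optic nerve, made 2 weeks after the injection into the vitreous by closing forceps on the nerve for 3 seconds about 1 mm behind the eye, and were taken 4 days after it. No virus is named for Uninjured, so that injury and virus cannot be told apart in a comparison with it, and the design text names retinal ganglion cells as the cells meant to express the genes. GFP replicate 1 was not analysed here.

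Neurotrophins act through Trk receptor tyrosine kinases. BDNF binds TrkB, the product of Ntrk2, and neurotrophin-3 binds mainly TrkC, the product of Ntrk3. The product of Ngfr, p75NTR, binds all neurotrophins with low affinity and can pass on survival or death signals according to its partners. GDNF and neurturin bind the membrane-anchored coreceptors encoded by Gfra1 and Gfra2, and the complex signals through the kinase Ret. FGF2 binds Fgfr1 among other receptors of its family. In the retina, BDNF and FGF2 are known as survival factors of ganglion cells and photoreceptors, and Mueller glia are a known source of FGF2 after damage.

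The libraries held 10939457 (HDAC5AA replicate 4) to 30970658 (Uninjured replicate 3) recovered reads in the shared genes. Ribosomal RNA features took 0.0212% to 9.87% of them, with 1% or more in 9 of the 15 libraries, all 3 of GFP among these. The share was summed over 7 features taken to hold ribosomal RNA reads, among them mt-Rnr1 and Lars2. Not all of the 7 are genes of ribosomal RNA, so the share stands in for the true one. Hdac5 itself held 6694 to 8444 normalized reads in HDAC5AA, 7467 to 8634 in HDAC5DAD, 6566 to 6673 in GFP and 6593 to 6959 in Uninjured. The rods, cones and bipolar cells that make up most of a retina were all represented, with no marker of these lists at 0 in any library. Separate animals are not named for the libraries of a group. The p-values therefore measure only how far these samples spread, and that spread may be technical.

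Among the 9 genes, Fgf2 and Fgfr1 rose in all 3 injured groups against Uninjured, and Ntrk3 fell in HDAC5DAD. The test was limma on log2(value + 1), with Benjamini-Hochberg adjustment over all genes of a table and a threshold of 0.05. In HDAC5AA, 2 of 9 members were higher and 0 lower, where the test called 5.38% of 19714 genes higher and 3.17% lower. In HDAC5DAD, 2 of 9 were higher and 1 lower, where it called 7.8% of 19956 genes higher and 5.47% lower. In GFP, 2 of 9 were higher and 0 lower, where it called 5.57% of 19961 genes higher and 5.83% lower. The libraries of the 2 groups lay apart for 3 of 9 genes in HDAC5AA, all higher, where 7.23% of all genes lay apart as higher and 5.53% as lower. They lay apart for 2 higher and 1 lower in HDAC5DAD (9.48% and 7.11% of all genes) and for 2 higher and 1 lower in GFP (10.5% and 11.4%). The median log2 fold change of the 9 genes was 0.07 in HDAC5AA, -0.03 in HDAC5DAD and -0.07 in GFP, beside -0.01, -0.01 and 0.01 over all genes tested. The 3 comparisons share the same 4 Uninjured libraries, so their values are set side by side and are not independent of each other. The 9 genes were chosen with earlier results of these data known, so their counts beside the shares of all genes are no test.

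**Figure D1:**
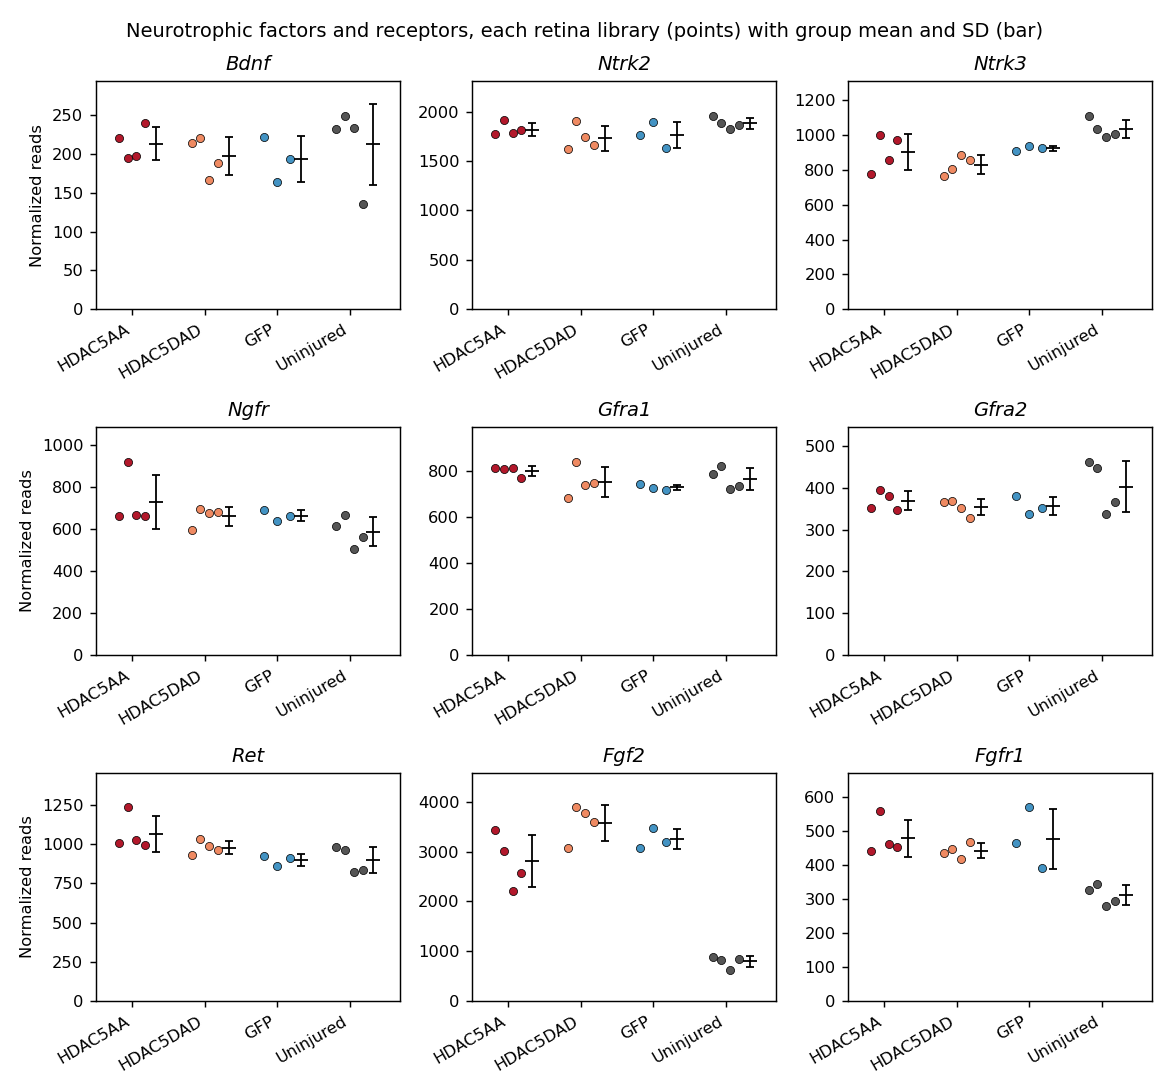
Normalized reads of the 9 genes in each of the 15 libraries, scaled jointly, with 1 panel a gene, the 4 groups along each horizontal axis and the group mean with its SD as a bar beside the points. All 11 injured libraries lie above all 4 Uninjured libraries for Fgf2 (2216 or more against at most 884) and for Fgfr1 (392 or more against at most 344).

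Fgf2 (ENSMUSG00000037225, chromosome 3, 37348346 to 37410108, plus strand, build GRCm38) encodes basic fibroblast growth factor. On the joint scale it held 3439, 3004, 2216 and 2578 normalized reads in HDAC5AA replicates 1 to 4, 3066, 3889, 3768 and 3606 in HDAC5DAD, and 3083, 3469 and 3189 in GFP replicates 2 to 4, against 884, 825, 619.5 and 841 in Uninjured. The injured and the uninjured libraries did not overlap, and the lowest injured library was HDAC5AA replicate 3. Group means were 2809 ± 529 in HDAC5AA (SD, n = 4), 3582 ± 363 in HDAC5DAD (n = 4), 3247 ± 199 in GFP (n = 3) and 793 ± 118 in Uninjured (n = 4). In the limma fits within each table, Fgf2 was 3.53-fold higher in HDAC5AA, at a log2 fold change of 1.82 ± 0.17 (SE) with an adjusted p of 0.000354. It was 4.53-fold higher in HDAC5DAD (2.18, SE 0.11, adjusted p = 2.28e-07) and 4.12-fold higher in GFP (2.04, SE 0.11, adjusted p = 6.36e-07). The authors' deposited table gives log2 fold changes of 1.33, 1.99 and 1.88 for HDAC5AA, HDAC5DAD and GFP. These are lower than the limma values and than those of DESeq2 on the recovered reads, at 1.83, 2.18 and 2.04. The reason for this was not tested.

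Split at 1% ribosomal RNA, the Fgf2 levels lay apart in HDAC5AA, HDAC5DAD and Uninjured, in opposite directions in the HDAC5 groups and in Uninjured. This split was not tested. The level did not follow the share itself, with 2578 in HDAC5AA replicate 4 at 9.87% and 2216 in replicate 3 at 3.44%. In HDAC5AA, both libraries with under 1% ribosomal RNA (3439 and 3004) were above both others (2216 and 2578), and in HDAC5DAD likewise (3889 and 3768 above 3066 and 3606). In Uninjured, both libraries with under 1% (825 and 619.5) were below both others (884 and 841), though 825 and 841 lay close. Within the libraries at 1% or more, the log2 fold change against Uninjured was 1.47 in HDAC5AA, 1.94 in HDAC5DAD and 1.91 in GFP. Within those under 1%, it was 2.17 in HDAC5AA and 2.42 in HDAC5DAD, and GFP has no such library. Fgf2 passed the test in each of these 5 fits, with the highest adjusted p at 3.78e-05 in HDAC5AA.

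Nudt6, which encodes a Nudix hydrolase and lies on the opposite strand, shares 640 exon bases with Fgf2. It held 70.3 to 81.3 normalized reads in HDAC5AA, 56.9 to 86.6 in HDAC5DAD and 77.6 to 94.5 in GFP, against 29.2 to 41.7 in Uninjured. The antisense gene Fgf2os, which shares no exon base with Fgf2, held 219.8 to 318 in HDAC5AA, 347 to 491 in HDAC5DAD and 304 to 426 in GFP, against 71.7 to 122 in Uninjured. Both passed the limma test in all 3 comparisons, with log2 fold changes of 1.10, 1.13 and 1.28 for Nudt6 and 1.48, 2.22 and 2.02 for Fgf2os in HDAC5AA, HDAC5DAD and GFP. The sources used here do not give the strand mode of counting, so reads of Fgf2 and Nudt6 cannot be told apart in the exon bases they share. The same limit holds for Bdnf (896 exon bases), Gfra1 (416) and Fgfr1 (164), which each share them with an annotated antisense gene. Fgf2 also shares 255 exon bases with Gm43439 on its own strand.

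Bdnf (ENSMUSG00000048482, chromosome 2, 109674700 to 109727007, plus strand) encodes brain-derived neurotrophic factor. It held 220.3, 195, 197 and 239 normalized reads in HDAC5AA, 213.5, 221, 167 and 188 in HDAC5DAD, and 222, 163.5 and 194 in GFP, against 233, 249, 233 and 135 in Uninjured. The groups overlapped throughout, and Uninjured replicate 4 was the lowest of the 15 libraries while Uninjured replicate 2 was the highest. The log2 fold changes against Uninjured were 0.04 in HDAC5AA (SE 0.17, 95% interval -0.32 to 0.40), -0.08 in HDAC5DAD (SE 0.17, -0.46 to 0.30) and -0.11 in GFP (SE 0.22, -0.60 to 0.38). No limma test of Bdnf passed, with adjusted p-values of 0.954, 0.853 and 0.822. Without Uninjured replicate 4 the log2 fold changes were -0.16 in HDAC5AA, -0.28 in HDAC5DAD and -0.31 in GFP, with limma adjusted p-values of 0.505, 0.124 and 0.0959. Leaving out each other library in turn gave -0.0187 to 0.128 in HDAC5AA, -0.133 to 0.0136 in HDAC5DAD and -0.217 to 0.00221 in GFP. In HDAC5DAD and GFP these were the widest intervals of the 9 genes, over 123 to 380 reads a library, at which counting alone gives a coefficient of variation of 6.68% to 7.43% by group.

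The RefSeq start-site windows for GRCm38.p6, which run from 250 bases before to 50 after a gene's start, cover 5 of the 9 genes with 11 windows, of which 7 belong to Bdnf. They were searched on both strands for the half-site of the cAMP response element (TGACG), bound by CREB-family factors, since the genes most like Bdnf over the 15 libraries include the immediate early gene Fos. The half-site stood in 2 of the 11 windows, in 1 of the 7 of Bdnf and in that of Fgf2, and in 20.8% of the 32851 windows of all genes. Both windows are on the plus strand, at chr3:37348403-37348702 for Fgf2 and chr2:109692186-109692485 for Bdnf, and capitals mark the half-site or its complement CGTCA.
Fgf2: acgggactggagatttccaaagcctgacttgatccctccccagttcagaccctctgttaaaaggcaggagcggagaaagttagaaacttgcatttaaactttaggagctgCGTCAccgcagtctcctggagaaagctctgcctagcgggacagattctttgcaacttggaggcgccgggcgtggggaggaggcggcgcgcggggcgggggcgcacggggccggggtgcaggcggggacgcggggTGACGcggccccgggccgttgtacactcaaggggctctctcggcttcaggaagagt
Bdnf: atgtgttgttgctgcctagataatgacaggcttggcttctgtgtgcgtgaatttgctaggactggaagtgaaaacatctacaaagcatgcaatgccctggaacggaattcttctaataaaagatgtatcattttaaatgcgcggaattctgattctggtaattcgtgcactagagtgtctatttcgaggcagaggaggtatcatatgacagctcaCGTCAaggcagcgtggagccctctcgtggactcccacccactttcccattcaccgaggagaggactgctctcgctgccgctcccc
The full element TGACGTCA, which contains the half-site, stood in none of the 11 windows and in 1.79% of all windows. The AP-1 motif TGANTCA was in 1 window of Bdnf (7.81% of all windows), the STAT motif TTCNNNGAA in 1 other window of Bdnf (8.3%), and the motif of MEF2, the factor that class IIa deacetylases bind, in none (3.19%). A match is a run of letters and no evidence of binding.

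Fgfr1 (ENSMUSG00000031565, chromosome 8, 25513654 to 25575718, plus strand) encodes the FGF receptor tyrosine kinase. Its libraries held 442, 559, 461 and 451 normalized reads in HDAC5AA, 436, 445.5, 419 and 469 in HDAC5DAD, and 465, 569 and 392 in GFP, against 326, 344, 278 and 295 in Uninjured. All injured libraries were above all uninjured ones, and HDAC5AA replicate 2 and GFP replicate 3 were the highest. Fgfr1 rose 1.54-fold in HDAC5AA, at a log2 fold change of 0.62 ± 0.09 (SE) with a limma adjusted p of 7.51e-05. It rose 1.42-fold in HDAC5DAD (0.51, SE 0.08, adjusted p = 0.00014) and 1.51-fold in GFP (0.60, SE 0.11, adjusted p = 0.0014). Fgfr1 thus rose by less than Fgf2 on the log2 scale, with 95% intervals that reached at most 0.83 for Fgfr1 and began at 1.43 or more for Fgf2.

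**Figure D2:**
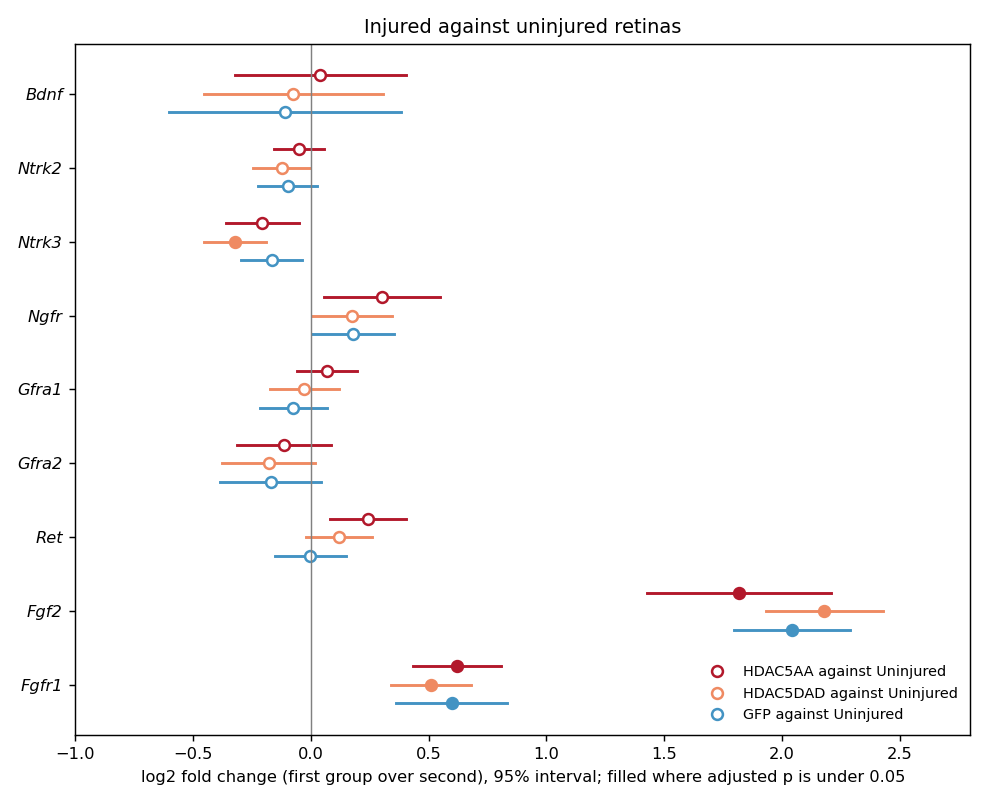
Log2 fold change of each injured group over Uninjured for the 9 genes (points) with its 95% interval from limma (lines), filled where the adjusted p was under 0.05. Fgf2 lies between 1.82 and 2.18 and Fgfr1 between 0.51 and 0.62, and Ntrk3 is filled in HDAC5DAD at -0.32.

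Of the genes of Trk receptors, Ntrk3 passed as lower in HDAC5DAD and Ntrk2 passed nowhere. Ntrk3 (ENSMUSG00000059146, chromosome 7, 78175959 to 78738012, minus strand) held 779, 999, 856 and 973 normalized reads in HDAC5AA, 767, 805, 886 and 859 in HDAC5DAD, and 909, 937.5 and 926 in GFP, against 1110, 1035, 991 and 1007 in Uninjured. Every library of HDAC5DAD and GFP was below every Uninjured library, and only HDAC5AA replicate 2 overlapped with them. Ntrk3 fell in HDAC5DAD to 0.799 of its level in Uninjured, at a log2 fold change of -0.32 ± 0.06 (SE) with a limma adjusted p of 0.00109. The values were -0.21 (SE 0.07, adjusted p = 0.107) in HDAC5AA and -0.17 (SE 0.06, adjusted p = 0.0933) in GFP, which did not pass. Without HDAC5AA replicate 2 the HDAC5AA value was -0.26 with an adjusted p of 0.0326, and in the libraries under 1% ribosomal RNA alone the HDAC5DAD value was -0.26 with an adjusted p of 0.0845.

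Ntrk2 (ENSMUSG00000055254, chromosome 13, 58806569 to 59133970, plus strand) held 1768, 1909, 1780 and 1811 normalized reads in HDAC5AA, 1620.0, 1906, 1740.0 and 1662 in HDAC5DAD and 1764, 1893 and 1634 in GFP, against 1957, 1884, 1820.4 and 1867 in Uninjured. The groups overlapped. The log2 fold changes were -0.05 (95% interval -0.16 to 0.06) in HDAC5AA, -0.12 (-0.24 to -0.0033) in HDAC5DAD and -0.10 (-0.23 to 0.03) in GFP. None passed limma's adjusted threshold, with adjusted p-values of 0.71, 0.198 and 0.356. Without HDAC5DAD replicate 2, the HDAC5DAD value was -0.17 with an adjusted p of 0.0475. Both Trk genes have full-length and truncated forms that lack the kinase, and a count per gene does not separate them.

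Ngfr (ENSMUSG00000000120, chromosome 11, 95568818 to 95587735, minus strand) held 662, 921, 667.5 and 661.5 normalized reads in HDAC5AA, 595, 695, 676 and 682 in HDAC5DAD, and 690.5, 639 and 660.5 in GFP, against 613, 669, 505 and 564 in Uninjured. The highest library was HDAC5AA replicate 2, and the highest Uninjured library lay within the range of each injured group. The log2 fold changes were 0.30 (SE 0.11) in HDAC5AA, 0.17 (SE 0.08) in HDAC5DAD and 0.18 (SE 0.08) in GFP, and none passed, with limma adjusted p-values of 0.16, 0.2 and 0.208. Without HDAC5AA replicate 2, the HDAC5AA value was 0.18 (adjusted p = 0.265). With the replicate number added to the limma fit it was 0.30 and passed (adjusted p = 0.00805). The authors' deposited table gives Ngfr in HDAC5AA an adjusted p of 0.0705, within their threshold of 0.1.

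Ret (ENSMUSG00000030110, chromosome 6, 118151745 to 118197718, minus strand), the signalling kinase of the GDNF family, held 1009.9, 1235, 1024 and 996 normalized reads in HDAC5AA, 934, 1031, 989.5 and 960.1 in HDAC5DAD, and 927, 859 and 913 in GFP, against 981, 964, 823 and 836 in Uninjured. Every HDAC5AA library was above every Uninjured one, while HDAC5DAD and GFP overlapped with Uninjured. The log2 fold change was 0.24 in HDAC5AA (SE 0.08, adjusted p = 0.0611), 0.12 in HDAC5DAD (SE 0.07, adjusted p = 0.302) and -0.0019 in GFP (SE 0.07, adjusted p = 0.992), so Ret missed the threshold of the limma test in each. The HDAC5AA value was 0.17 (adjusted p = 0.204) without HDAC5AA replicate 2 and 0.28 (adjusted p = 0.0484) or 0.27 (adjusted p = 0.0496) without Uninjured replicate 1 or 2. It passed with all libraries on the joint scale (adjusted p = 0.0271), and edgeR on the recovered reads gave 0.25 with an adjusted p of 0.0483. With the replicate number added to the limma fit, the HDAC5AA value was 0.24 and passed (adjusted p = 0.0174). The authors' deposited table gives an adjusted p of 0.0547 for Ret in HDAC5AA, within their threshold of 0.1.

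The coreceptors of Ret did not pass in any comparison. Gfra1 (ENSMUSG00000025089, chromosome 19, 58235604 to 58455909, minus strand), which binds GDNF, held 816, 809.9, 817 and 770.4 normalized reads in HDAC5AA, 685, 842, 743 and 751 in HDAC5DAD, and 743.5, 728 and 719 in GFP, against 789, 824, 723 and 735.5 in Uninjured. Gfra2 (ENSMUSG00000022103, chromosome 14, 70890120 to 70979838, plus strand), which binds neurturin, held 353, 395.5, 381 and 348 in HDAC5AA, 367, 368, 353 and 329 in HDAC5DAD, and 380.0, 338 and 351 in GFP, against 463, 447, 338 and 366 in Uninjured. All groups overlapped for both genes, and Uninjured replicates 1 and 2 were the highest for Gfra2. For Gfra1 the log2 fold changes were 0.07 (95% interval -0.06 to 0.19) in HDAC5AA, -0.03 (-0.17 to 0.12) in HDAC5DAD and -0.07 (-0.21 to 0.07) in GFP. For Gfra2 they were -0.12 (-0.32 to 0.08), -0.18 (-0.38 to 0.02) and -0.17 (-0.39 to 0.04) in HDAC5AA, HDAC5DAD and GFP.

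Set per kilobase of exon, which allows genes to be compared, Fgf2 had the highest level of the 9 in each injured group. Its mean was 414 normalized reads per kb in HDAC5AA, 528 in HDAC5DAD and 479 in GFP, and its libraries did not overlap with those of Ngfr, the next gene, at 211, 192 and 192.5. In Uninjured, Fgf2 had rank 4 at 117 (range 91.3 to 130.4) after Ngfr at 171, Gfra1 at 140.2 and Ret at 133, and each of these overlapped with its neighbour. The means of Gfra2 and Ntrk2 lay between 89.8 and 114 in all groups. Fgfr1, Bdnf and Ntrk3 were the 3 lowest in each group, at 27.5 to 48.5. The Fgfr1 libraries stood above those of Bdnf in each injured group without overlap, at means of 48.5, 44.8 and 48.2 beside 34.3, 31.8 and 31.1 for Bdnf in HDAC5AA, HDAC5DAD and GFP. The length used is the union of all annotated exons, which is 30170 bases for Ntrk3 and 19292 for Ntrk2 against 3446 for Ngfr, so the level per kb of a gene whose transcripts use few of its exons is understated. In Uninjured, Fgfr1 was the lowest, at 31.5, and overlapped with Bdnf at 34.2.

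**Figure D3:**
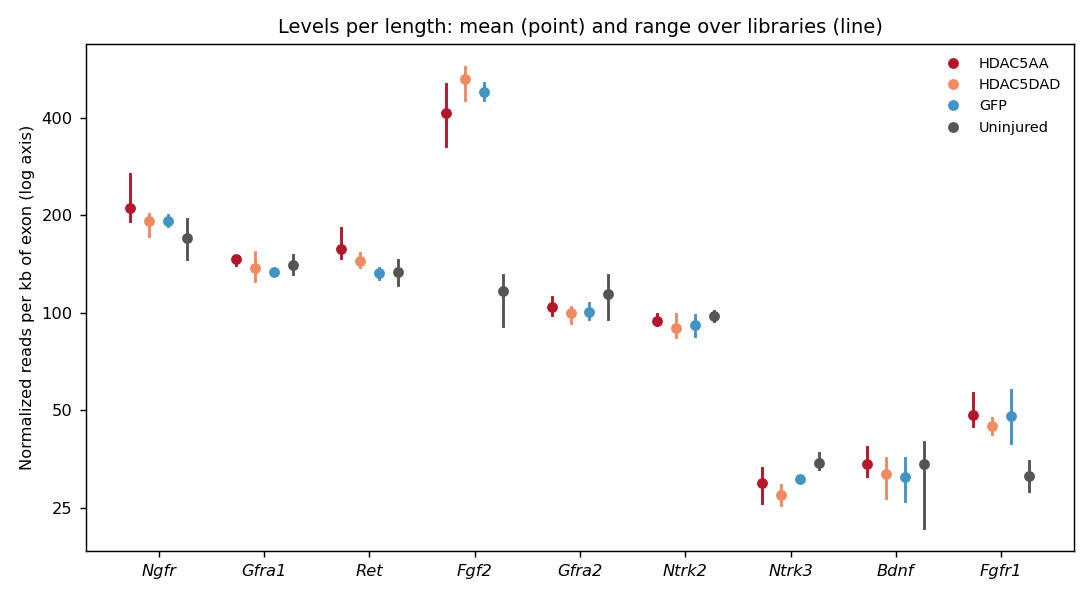
Normalized reads per kb of exon on a log axis for the 9 genes in each group, with the mean as a point and the range over libraries as a line. Fgf2 stands at 414 to 528 in the injured groups and at 117 in Uninjured, and the other 8 genes keep between 27.5 and 211.

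Comparing the virus groups with each other asks whether either form of HDAC5 goes with another level of these genes after crush. Of the 9 genes, 0 passed in HDAC5AA against HDAC5DAD, where limma called 0.00513% of 19495 genes in each direction, and 0 passed in HDAC5AA or in HDAC5DAD against GFP, where it called 0% in either direction. At an unadjusted p under 0.05, limma counted 668 genes higher (3.43%) and 616 lower (3.16%) in HDAC5AA against GFP. In HDAC5DAD against GFP it counted 1287 higher (6.6%) and 951 lower (4.88%). At an adjusted p under 0.05, edgeR called 0 genes in either comparison with GFP. At the same adjusted threshold, DESeq2 called 0 for HDAC5AA and 44 higher and 13 lower for HDAC5DAD. Hdac5 itself did not pass against GFP, at 0.207 in HDAC5AA (limma adjusted p = 0.737) and 0.274 in HDAC5DAD (limma adjusted p = 0.154). Against Uninjured, Hdac5 was at 0.161 in HDAC5AA (limma adjusted p = 0.13) and passed in HDAC5DAD at 0.225 (limma adjusted p = 0.00766).

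Fgf2 had the largest difference between HDAC5 forms among the 9 genes, with HDAC5AA below HDAC5DAD by a log2 fold change of -0.36 (SE 0.14, 95% interval -0.67 to -0.06, unadjusted p = 0.024, limma adjusted p = 0.712). The libraries of both overlapped, since HDAC5AA replicate 1 (3439) was above HDAC5DAD replicate 1 (3066). Within the libraries at 1% ribosomal RNA or more the value was -0.48 with an adjusted p of 0.0409 (2 libraries against 2 for these groups), and within those under 1% it was -0.25 with an adjusted p of 0.885. Against GFP, Fgf2 was at -0.23 (-0.56 to 0.11) in HDAC5AA and at 0.14 (-0.19 to 0.47) in HDAC5DAD. Fgf2os showed 219.8 to 318 normalized reads in HDAC5AA and 347 to 491 in HDAC5DAD, which did not overlap, with a log2 difference of -0.74 (SE 0.16, unadjusted p = 0.000268, limma adjusted p = 0.359).

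Against GFP, the libraries of HDAC5AA lay entirely above for 2 of the 9 genes, Ret and Gfra1, and below for 0, where 4.22% of all genes lay above and 3.68% below. For Ret the log2 fold change was 0.24 (SE 0.08, unadjusted p = 0.00402, limma adjusted p = 0.737), and for Gfra1 it was 0.14 (SE 0.07, adjusted p = 0.756). The libraries of HDAC5DAD lay above GFP for Ret alone, at 0.12 (SE 0.08, limma adjusted p = 0.536), and below GFP for Ntrk3 alone, at -0.16 (SE 0.07, adjusted p = 0.429), where 5.81% and 5.13% of all genes did so. For HDAC5AA against HDAC5DAD, 0 of the 9 genes had libraries that lay apart, where 1.69% of all genes did as higher and 1.52% as lower. For the receptors the 95% intervals of the 3 comparisons between injured groups reached at most 0.40 on the log2 scale in either direction, and for Bdnf at most 0.50.

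**Figure D4:**
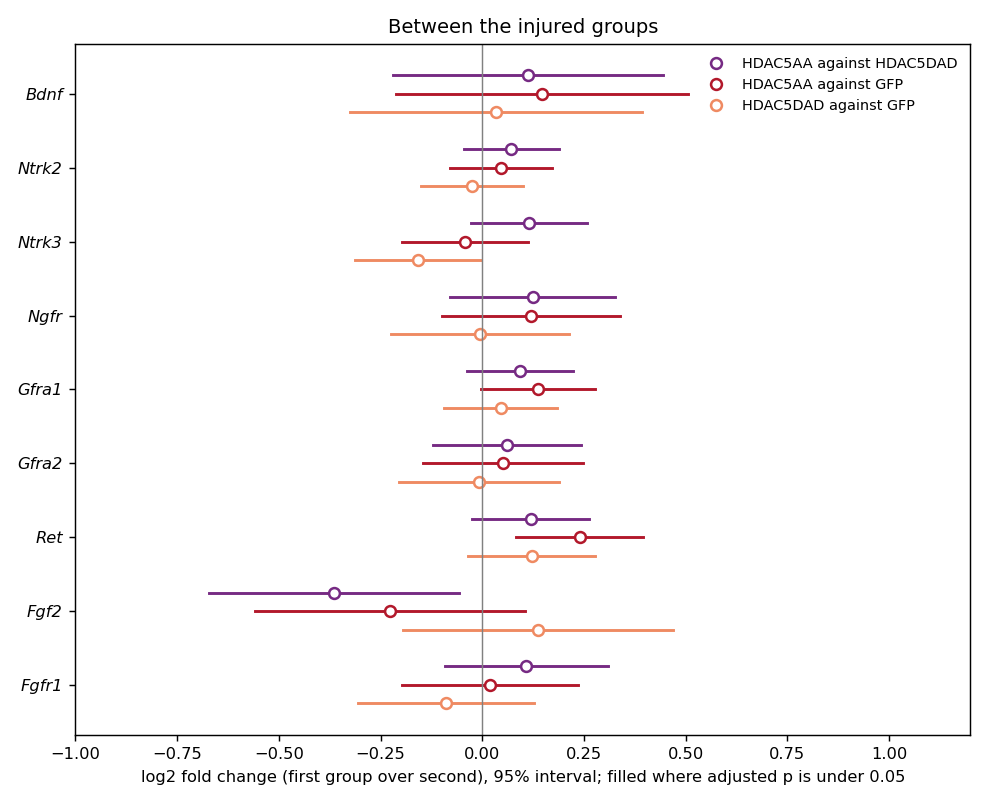
Log2 fold change between injured groups for the 9 genes (points) with its 95% interval from limma (lines); all points are open, since no adjusted p was under 0.05. Fgf2 is lowest in HDAC5AA against HDAC5DAD at -0.36, and Ret is highest in HDAC5AA against GFP at 0.24.

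Beyond the 9 genes, 66 other genes of these pathways were listed by role, of which 62 were measured. Of these 62, 4 were higher and 4 lower in HDAC5AA, 5 higher and 11 lower in HDAC5DAD, and 4 higher and 7 lower in GFP against Uninjured. Over all genes tested, 5.38% were called higher and 3.17% lower in HDAC5AA, 7.8% and 5.47% in HDAC5DAD, and 5.57% and 5.83% in GFP. The counts of higher genes are near these shares and those of lower genes are above them, and this difference was not tested. The lists were chosen with earlier results of these data known, so the counts beside the shares are no test of these pathways. Between the injured groups, 0 passed the limma test in any comparison. Their median log2 fold change was -0.03 in HDAC5AA, -0.08 in HDAC5DAD and -0.07 in GFP.

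Of 12 other FGF ligands and receptors, 0 were higher, and 2 were lower in HDAC5AA, 3 in HDAC5DAD and 2 in GFP, where 3.17%, 5.47% and 5.83% of all genes were called lower. Fgf1, the acidic FGF that binds all FGF receptors, held 470.1 to 502 normalized reads in HDAC5AA, 436 to 514 in HDAC5DAD and 431 to 525 in GFP, against 861 to 979 in Uninjured. The ranges did not overlap, and Fgf1 fell to 0.525, 0.519 and 0.518 of its Uninjured level, with log2 fold changes of -0.93 (SE 0.06), -0.95 (SE 0.07) and -0.95 (SE 0.08) and limma adjusted p-values of 4.05e-09, 7.28e-09 and 1.78e-08. Fgf9, a ligand made by neurons, fell by 0.30, 0.27 and 0.40 on the log2 scale, and Fgf18 passed in HDAC5DAD at -1.21 (SE 0.39, limma adjusted p = 0.0449), where its libraries overlapped with Uninjured. The median of the list was -0.255 in HDAC5AA, -0.372 in HDAC5DAD and -0.269 in GFP. Fgf1 was thus lower in all 11 injured libraries in which Fgf2 was higher than in every uninjured library.

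In the neurotrophin list, 9 of 11 genes were measured, and 0 were higher and 2 lower in HDAC5AA, 0 and 3 in HDAC5DAD, and 0 and 4 in GFP, beside the same shares of all genes called lower (3.17%, 5.47% and 5.83%). Lingo1, a partner of p75NTR at the Nogo receptor, held 558 to 636 normalized reads in HDAC5AA, 475.5 to 573 in HDAC5DAD and 517 to 538 in GFP, against 667 to 878 in Uninjured. It fell in all 3 groups, by 0.34, 0.49 and 0.50 on the log2 scale, and Sorcs3, a sortilin-family receptor, fell by 0.38, 0.43 and 0.57. Sort1, the sortilin that binds proneurotrophins with p75NTR, fell by 0.22 in both HDAC5DAD and GFP. In HDAC5AA, Sort1 was at -0.16 and did not pass. Bex3 passed as lower in GFP, at -0.22 (SE 0.07, limma adjusted p = 0.0488). Ntf3 and Ntf5 were not analysed here.

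Of 7 measured genes of the GDNF family list, which holds 9, Gdf15 was higher in each injured group. Over all genes, 5.38%, 7.8% and 5.57% were called higher in HDAC5AA, HDAC5DAD and GFP. Gdf15, a stress-induced ligand that signals through Ret with the coreceptor GFRAL, held 22.9 to 41.9 normalized reads in HDAC5AA, 21.5 to 41.8 in HDAC5DAD and 25.7 to 34.5 in GFP, against 10.4 to 19.7 in Uninjured. The groups did not overlap, and the log2 fold changes were 1.15 (SE 0.25), 1.04 (SE 0.25) and 1.02 (SE 0.25), with limma adjusted p-values of 0.00388, 0.00771 and 0.00973. Gfra4, the coreceptor of persephin, passed in HDAC5DAD at -0.25 (SE 0.08, adjusted p = 0.0449). Gdnf itself held 4.57 to 17.5 normalized reads over all libraries and Nrtn, the gene of neurturin, 205 to 310.2, and neither passed. Gfral and Gfra3 were not analysed here.

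Among 12 further trophic factors and receptors, 2 were higher in each injured group and 0, 2 and 1 were lower in HDAC5AA, HDAC5DAD and GFP. Over all genes, 5.38%, 7.8% and 5.57% were called higher and 3.17%, 5.47% and 5.83% lower in these groups. Lif, a cytokine of the interleukin-6 family that Mueller glia make after retinal damage, held 28.4 to 68.1 normalized reads in HDAC5AA, 57.3 to 73.9 in HDAC5DAD and 50.6 to 83.6 in GFP, against 10.4 to 19.7 in Uninjured. It was 3.37-fold, 4.53-fold and 4.61-fold higher, with limma adjusted p-values of 0.0003, 6.96e-07 and 3.92e-06. Plat, the tissue plasminogen activator whose product plasmin cleaves proBDNF, was 2.11-fold, 2.18-fold and 1.86-fold higher, with 612 to 831 normalized reads in HDAC5AA, 675 to 854 in HDAC5DAD and 608 to 659 in GFP, against 323 to 365 in Uninjured. Igf1 fell by 0.37 in HDAC5DAD and 0.32 in GFP on the log2 scale, and Nrg1 fell by 0.32 in HDAC5DAD.

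Few genes passed among the intracellular partners. Of 12 adaptors of receptor tyrosine kinases, Shc2, a neuronal Shc adaptor, rose in HDAC5AA (log2 fold change 0.35, SE 0.06, limma adjusted p = 0.000654) and in HDAC5DAD (0.28, SE 0.06, adjusted p = 0.00218), and was at 0.15 in GFP. Frs3, an adaptor of FGF and Trk receptors, fell in HDAC5DAD by 0.26. Of 10 genes that FGF and ERK signalling is known to induce, 0 passed in HDAC5AA. Dusp6, an ERK phosphatase, passed as higher (0.29, SE 0.09, limma adjusted p = 0.0467) and the transcription factor Etv4 as lower (-0.53, SE 0.17, adjusted p = 0.044) in HDAC5DAD, and Spry1, a feedback inhibitor, passed as higher in GFP (0.38, SE 0.11, limma adjusted p = 0.0315). Their medians were 0.04, 0.01 and -0.01 in HDAC5AA, HDAC5DAD and GFP. Lists with 1 gene passing in 10 or 12 are near the background shares given above.

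**Figure D5:**
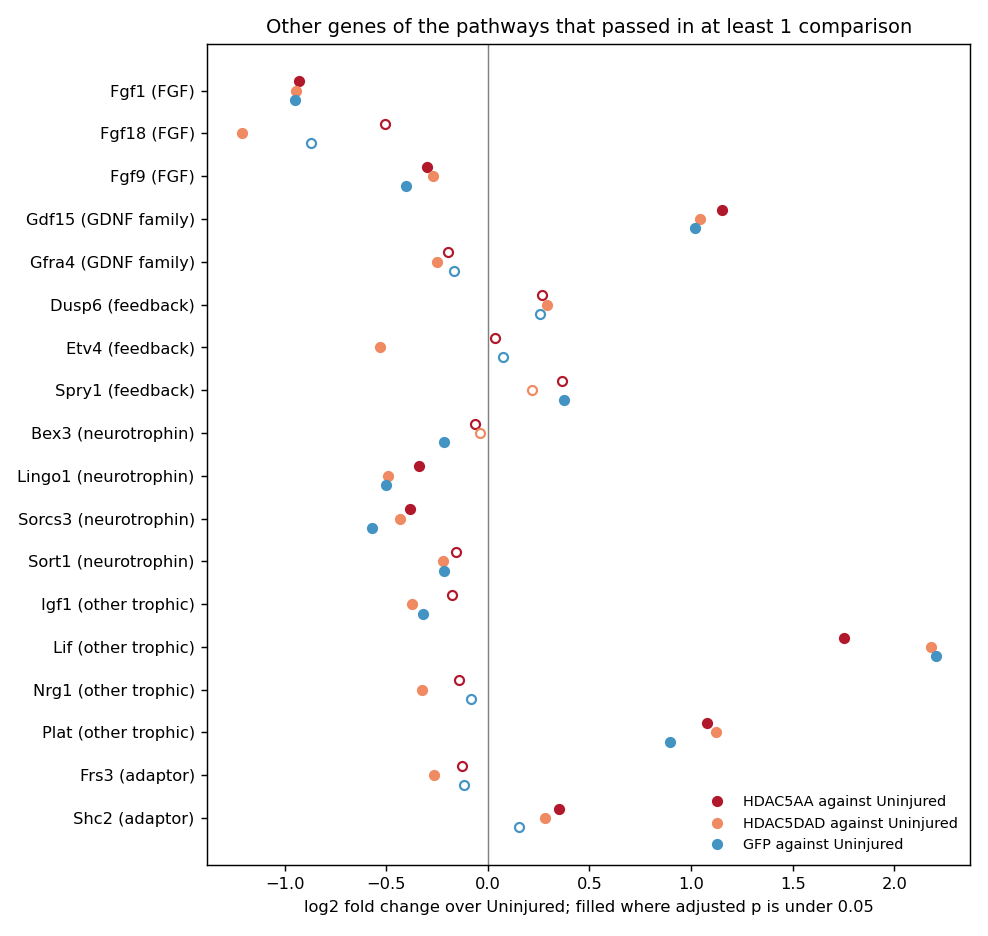
Log2 fold change of each injured group over Uninjured for the 18 other genes of the pathway lists that passed in at least 1 of these comparisons, with the list of each gene in brackets; filled points passed. Lif, Plat and Gdf15 are filled above 0 and Fgf1, Fgf9, Lingo1 and Sorcs3 below 0 in all 3 comparisons.

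Whole retina mixes many cell types, and fewer cells of a type and less RNA per cell cannot be told apart in it. Of 12 ganglion cell markers, 11 were lower in each injured group, and their summed level was 8118 to 9113 normalized reads in HDAC5AA, 7716 to 9575 in HDAC5DAD and 7335 to 8466 in GFP, against 15763 to 17832 in Uninjured. Of 7 reactive glia markers, 6 were higher in HDAC5AA, 7 in HDAC5DAD and 6 in GFP, and their sum was 6904 to 9367, 7697 to 10314 and 7623 to 9778, against 3886 to 4746 in Uninjured. Of 8 microglia markers, 7 were higher in each, at sums of 2338 to 3817, 2743 to 3735 and 2066 to 2844, against 1028 to 1240.3 in Uninjured. Macrophage and monocyte markers were higher too, for 6, 6 and 5 of 6, with Ccr2 and Mmp12 at 0 in an uninjured library. Among 7 markers of Mueller glia, 2 were higher in HDAC5AA (Apoe and Dkk3), 3 in HDAC5DAD (Apoe, Dkk3 and Aqp4) and 1 in GFP (Apoe), and 1 was lower in each (Glul). Over all genes, 5.38%, 7.8% and 5.57% were called higher and 3.17%, 5.47% and 5.83% lower in HDAC5AA, HDAC5DAD and GFP. The part of these marker shifts in the values of Fgf2, Fgfr1 and Ntrk3 was not tested.

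Over the 15 libraries, the genes whose log2 level ran most like that of Fgf2 were Lad1, Osmr and Cebpd, with Pearson's r of 0.99 each among 14262 genes compared. Osmr, the oncostatin M receptor, is itself among the reactive glia markers. The 15 points fall into injured and uninjured libraries, so these correlations describe mostly that step. Lad1, which encodes a basement membrane anchor protein, held 437 to 768 normalized reads in HDAC5AA, 538 to 754 in HDAC5DAD and 679.9 to 812 in GFP, against 66.2 to 124.5 in Uninjured. Nearest to Fgfr1 were Msn (0.97), Sec22c (0.96) and Rfx2 (0.94). Nearest to Ntrk3 were Stk32b (0.89), Fam13a (0.89) and Tet1 (0.88).

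The genes nearest to Bdnf were Arid5b, Fos and Sik1, with r of 0.84 each. Fos is an immediate early gene induced by neuronal activity, as Bdnf is, and Sik1 is a kinase gene known as a target of CREB. Fos held 482 to 1323 normalized reads in HDAC5AA, 489 to 1347 in HDAC5DAD and 672 to 933 in GFP, against 337 to 1509.7 in Uninjured, so its groups overlapped as those of Bdnf did. Bdnf, Arid5b, Fos and Sik1 each had their lowest Uninjured value in replicate 4. Arid5b, Fos and Sik1 were picked for their likeness to Bdnf over these same libraries, so the shared low library is no separate result. Among the 9 genes themselves, Ret and Ngfr were closest to each other (r = 0.87), and Ngfr and Ret were both highest in HDAC5AA replicate 2. The next pairs were Fgf2 with Fgfr1 (0.855), Ngfr with Fgfr1 (0.727) and Fgf2 with Ntrk3 (-0.695), while Bdnf and its receptor gene Ntrk2 stood at 0.06. As above, the pairs with Fgf2 or Fgfr1 describe mostly the step between injured and uninjured libraries. Whether these genes run together within the injured libraries alone was not computed. Mras, Epb41l4a and Trim9 were nearest to Ngfr, Prune2 and Mras to Ret, Sh3rf1, Slc2a13 and Pkp4 to Ntrk2, Fam117b, Nosip and Sh3bgrl to Gfra1, and Jph1, Synj2 and Gabrg3 to Gfra2, all with r of 0.845 to 0.92.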

How the data were processed

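Whole retina RNA was depleted of ribosomal RNA with Ribo-Zero, made into libraries with a SMARTer kit and sequenced on an Illumina HiSeq as single reads of 50 nt, per the labels' protocols. Tools named by the submitters' processing notes are STAR, HTSeq and DESeq2, with the build mm10. Their versions and the strand mode are not given in the sources used here. The authors deposited 3 tables, each with 1 injured group and the same 4 uninjured libraries, as a signal of counts divided by 1 factor per library. All values (100% in every library) were within 0.01 of a whole read after multiplication by that factor, and these recovered reads are the depth given in the text. Since the deposited unit was not a count, the main test was limma 3.58.1 in R 4.3.3 (trend, robust) on log2(value + 1), two-sided, leaving out any gene with a mean under 1, and edgeR 4.0.16 and DESeq2 1.42.0 on the recovered reads were alternatives. Comparisons with Uninjured were fitted within each table. Those between injured groups were fitted on the reads of 15 libraries with median-of-ratios size factors, and levels by library are on that joint scale. The authors' log2 fold changes, p-values and adjusted p-values were copied from the deposited tables, per the file headers. Levels per kb were divided by the union of GENCODE exons, which matched 20190 of 20278 identifiers.

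The members and gene lists were chosen with earlier results of these data known, and some genes of the neurotrophin list are not reported here. Named were the 9 genes, pathway genes that passed in at least 1 comparison (values for at most 4 a list, by adjusted p), low ligands beside them chosen after their values were seen, and for each member the 3 genes of highest Pearson's r. Likeness was computed over genes with a joint mean of at least 10. Alternatives were other pseudocounts, a minimum mean of 10, TMM scaling, a replicate block, each library left out, and, by share of ribosomal RNA, libraries at 1% or more. Libraries under 1% and a joint scale for all comparisons were added after the data were seen. The limma fit was also run on simulated counts with known changes, and the outcome of that run is not reported here. Those counts held no classes of ribosomal RNA share and no outlying library.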

Additional observations from a re-analysis of the deposited data

Results flagged for a closer look

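Within groups of 4 libraries, the gap between the most extreme library and its nearest neighbour, over the range of the group, was compared with Dixon's 95% critical value for 4 samples. Of 27 such groups of the 9 genes, 5 were past it, where chance passes about 1 in 20.

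HDAC5AA replicate 2 stood far above the other 3 libraries of its group for Ngfr (921 normalized reads), Ret (1235) and Fgfr1 (559). The other 3 held 661.5 to 667.5, 996 to 1024 and 442 to 461 normalized reads. Among 11879 genes with a mean of at least 100, this library was far above its group in 128 (1.08%) and far below it in 113. HDAC5AA replicate 4 stood far below its group for Gfra1 (770.4, with the others at 809.9 to 817). Uninjured replicate 4 stood far below its group for Bdnf (135, with the others at 233 to 249). What set these libraries apart was not tested.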

How the results depend on the processing

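The 54 values of the 9 genes were recomputed 891 times over the alternatives. Direction and side of the threshold were kept in 843 of these, and 14 of the 54 reversed under at least 1. None of these 14 was called, and none was over 0.111 on the log2 scale in its main fit. Reversed values themselves could be larger, such as -0.21 for Bdnf in HDAC5AA against Uninjured in libraries under 1% ribosomal RNA. Fgf2 and Fgfr1 passed against Uninjured under all alternatives run, at log2 fold changes of 1.47 to 2.17 and 0.542 to 0.684 in HDAC5AA, 1.94 to 2.42 and 0.459 to 0.56 in HDAC5DAD, and 1.91 to 2.1 and 0.459 to 0.729 in GFP. No gene had a mean under 1, so the fit with no filter was not run.

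No shared animal or day is named for libraries of the same replicate number. Correlations of deviations between same-numbered libraries ran from -0.179 to 0.245 in HDAC5AA against Uninjured and from 0.011 to 0.2125 in HDAC5DAD against GFP. Between libraries of different numbers they ran from -0.243 to 0.2715 and from -0.1496 to 0.0416. With 3 or 4 libraries a group, these values cannot decide whether the numbers mark pairs. A replicate block gave 749 lower genes in GFP against Uninjured, 0 either way in HDAC5AA against HDAC5DAD, 0.039 for Ret in GFP against Uninjured, and -0.0046 for Bdnf and 0.018 for Ngfr in HDAC5DAD against GFP. Under the block Ngfr (0.30, limma adjusted p = 0.00805) and Ret (0.24, adjusted p = 0.0174) passed in HDAC5AA against Uninjured.

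In libraries with at least 1% ribosomal RNA, fewer libraries gave 772 lower genes in GFP, 500 higher and 363 lower in HDAC5AA and 1000 higher in HDAC5DAD against Uninjured, 1 lower in HDAC5AA and 8 higher and 5 lower in HDAC5DAD against GFP, and 4 higher and 6 lower in HDAC5AA against HDAC5DAD. There Bdnf was at 0.11 in GFP and 0.17 in HDAC5DAD against Uninjured, Fgfr1 at -0.043 in HDAC5AA and Gfra1 at -0.026 in HDAC5DAD against GFP. In libraries under 1%, the counts were 621 higher and 160 lower in HDAC5AA and 549 lower in HDAC5DAD against Uninjured, and 0 either way in HDAC5AA against HDAC5DAD, with Bdnf at -0.21 in HDAC5AA and Gfra1 at 0.035 in HDAC5DAD against Uninjured.

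DESeq2 called 44 higher and 13 lower in HDAC5DAD against GFP and 2 higher and 4 lower in HDAC5AA against HDAC5DAD, where edgeR, TMM scaling and a minimum mean of 10 gave 0. Bdnf in HDAC5AA against Uninjured was at -0.0197 by edgeR and -0.00796 by DESeq2, and Ret in GFP at 0.0018 by edgeR and 0.0016 on the joint scale. The cause was not tested for any of these shifts.

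Leaving out 1 library at a time gave 0 to 2 higher genes in HDAC5DAD against GFP and 0 to 1 higher and 0 to 5 lower in HDAC5AA against HDAC5DAD. Against Uninjured, Bdnf ranged from -0.16 to 0.13 in HDAC5AA, from -0.28 to 0.014 in HDAC5DAD and from -0.31 to 0.0022 in GFP, Gfra1 from -0.082 to 0.019 in HDAC5DAD and Ret from -0.043 to 0.039 in GFP. In HDAC5AA against GFP, Ntrk2 ranged from -0.0087 to 0.098, Ntrk3 from -0.094 to 0.026 and Fgfr1 from -0.11 to 0.16. In HDAC5DAD against GFP, Bdnf ranged from -0.0801 to 0.14, Ntrk2 from -0.0801 to 0.026, Ngfr from -0.031 to 0.045, Gfra1 from -0.0088 to 0.091, Gfra2 from -0.047 to 0.039 and Fgfr1 from -0.22 to 0.048.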
